A study of Rattus norvegicus with 36 samples.

Results

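The transcripts described here encode 8 peptidases of the intestinal brush border, namely Anpep, Dpp4, Ace, Xpnpep2, Enpep, Mep1a, Mep1b and Mme. They were taken by gene symbol from a count table of 24773 genes, and all 8 passed the filter on low counts in ileum and in colon. The table came from 36 RNA-seq libraries of 18 male UCD-T2DM rats, a strain in which obesity, insulin resistance and then type 2 diabetes arise spontaneously, and each rat gave 1 library of distal ileum and 1 of proximal colon. Non-diabetic rats (ND, n = 6) were 70 days old, rats with recent diabetes (D1M, n = 6) were 168 to 172 days old and had been diabetic for 22 to 23 days, and rats of the D3M group (n = 6) were 172 to 173 days old and had been diabetic for 88 to 116 days without treatment. Fasting glucose was 85.6 to 101.6 mg/dl in ND, 93.6 to 178.6 mg/dl in D1M and 165 to 330.6 mg/dl in D3M rats. ND rats were of the same strain and no other strain served as control, so that age and diabetes cannot be told apart in a comparison with ND, whereas D1M and D3M rats were nearly the same age. Diabetes began at 146 to 150 days of age in D1M and at 57 to 85 days in D3M rats. Body weight was 597 to 663 g in D1M and 472 to 575 g in D3M rats. Duration, age at onset and weight cannot be told apart between these groups. The libraries were made from whole tissue, in which more cells of a type and more RNA per cell cannot be told apart.

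Brush border peptidases sit in the apical membrane of mature enterocytes, with their active sites facing the lumen. Luminal and pancreatic proteases leave oligopeptides, and the membrane peptidases trim these to amino acids, dipeptides and tripeptides, which carriers such as Slc15a1 (the proton-coupled peptide transporter PepT1) and Slc6a19 (the neutral amino acid carrier B0AT1) take into the cell. Several of the 8 also cut peptide hormones: Dpp4 inactivates the incretins, Ace converts angiotensin I and degrades bradykinin, Enpep acts on angiotensin II, and Mme degrades many small regulatory peptides.

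In the rn6 coordinates of the count table, Anpep lay at chr1:141561334-141604273 on the minus strand, Dpp4 at chr3:48291055-48372672 on the minus strand, Ace at chr10:94170766-94187822 on the plus strand and Xpnpep2 at chrX:134940615-134969996 on the plus strand. Enpep lay at chr2:233667254-233743866 on the minus strand, Mep1a at chr9:20048121-20077702 on the plus strand, Mep1b at chr18:15063079-15089988 on the minus strand and Mme at chr2:153803349-153880738 on the plus strand. Each interval is the whole gene, exons, introns and untranslated regions included.

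Library totals, rounded, ran from 12279000 to 21510000 counts in ileum and from 10024000 to 18299000 in colon. Fabp6, the ileal bile acid binding protein, was at 12403 CPM (counts scaled by TMM effective library size within a tissue) or above in the 18 ileum libraries, and Car1, a carbonic anhydrase of colonic epithelium, was at 14997 CPM or above in the 18 colon libraries. The ND colon library of rat K4028 stood apart, with Fabp6 at 8706 CPM against at most 21.3 CPM in the other 17 colon libraries. In the ileum, Car1 reached 3616 CPM in the ND library of rat K4040 and 1345 CPM in the D3M library of rat P762, against at most 130 CPM in the other 16. Car2, also used as a colonic marker, was at 1723 CPM or above in colon. It reached 435 CPM in ND ileum but at most 7.56 CPM in D3M ileum, the library of P762 included. Calls of the members between groups are therefore also given without the K4028 colon and K4040 ileum libraries and, in ileum, without that of P762. The shares of counts, the correlations and the other gene lists below include all libraries.

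Promoters of the 4 members that were higher in D3M ileum than in both other groups are shown because these transcripts carry the main group difference described below. The sequences run 5′ to 3′ from 250 bases before to 50 bases after the RefSeq start in the GRCr8 build, on the strand of the gene, and capitals mark matches, on either strand, to the HNF1 half-site GTTAAT or the HNF4 core CAAAG (written ATTAAC and CTTTG when on the opposite strand). They lie at chr1:143195052-143195351 (minus strand) for Anpep, chr3:67452373-67452672 (minus strand) for Dpp4, chr10:91409879-91410178 (plus strand) for Ace and chrX:132168149-132168448 (plus strand) for Xpnpep2.
Anpep: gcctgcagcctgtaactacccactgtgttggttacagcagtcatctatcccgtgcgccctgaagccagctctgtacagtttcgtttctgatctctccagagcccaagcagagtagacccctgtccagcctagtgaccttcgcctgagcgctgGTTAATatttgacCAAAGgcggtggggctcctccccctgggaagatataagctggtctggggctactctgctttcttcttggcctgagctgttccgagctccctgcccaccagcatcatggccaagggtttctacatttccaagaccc
Dpp4: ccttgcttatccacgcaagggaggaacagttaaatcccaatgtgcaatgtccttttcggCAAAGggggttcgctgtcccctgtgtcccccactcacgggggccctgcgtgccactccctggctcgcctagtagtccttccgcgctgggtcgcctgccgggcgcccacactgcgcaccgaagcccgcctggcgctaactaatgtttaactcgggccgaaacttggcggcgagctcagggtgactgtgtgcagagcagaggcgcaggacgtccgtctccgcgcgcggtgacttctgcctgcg
Ace: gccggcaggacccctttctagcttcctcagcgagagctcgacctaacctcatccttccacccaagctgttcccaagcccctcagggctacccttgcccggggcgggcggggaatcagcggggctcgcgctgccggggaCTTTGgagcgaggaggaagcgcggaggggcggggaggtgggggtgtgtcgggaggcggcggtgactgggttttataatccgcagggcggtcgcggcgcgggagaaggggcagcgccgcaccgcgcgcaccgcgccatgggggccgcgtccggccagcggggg
Xpnpep2: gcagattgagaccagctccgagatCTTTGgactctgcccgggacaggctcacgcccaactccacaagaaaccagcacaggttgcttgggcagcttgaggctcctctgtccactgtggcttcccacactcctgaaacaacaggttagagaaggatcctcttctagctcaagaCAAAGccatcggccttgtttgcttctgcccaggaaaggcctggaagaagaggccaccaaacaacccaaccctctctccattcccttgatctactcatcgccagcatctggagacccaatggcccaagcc

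In the Anpep promoter the HNF1 half-site began 98 bases before the start and the HNF4 core 85 bases before it, with no overlap of the motifs. The HNF4 core was found in 7 of the 8 members, all except Mme, and in 53.8% of all 33469 rat promoters of the same length. HNF1 half-sites were found in Anpep and Mep1b and in 7.45% of all promoters. Of the other motifs searched on both strands, the CDX core TTTATG (12.7% of all promoters) was found in Mep1a, and the GATA core AGATAA (11.6%) in 0 of the 8. These matches describe letters in the window and say nothing of binding. G and C bases made up 43.3% of the Mep1a promoter and 72.3% of the Ace promoter, the lowest and the highest of the 8, against a median of 51.7% over all promoters.

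In the ileum, 5 of the 8 peptidases were higher in D3M than in ND rats (Ace, Anpep, Dpp4, Xpnpep2 and Mep1b), with fold changes between 1.58 and 2.20 and edgeR FDR between 0.0026 and 0.0151. Over all 13026 ileal transcripts tested, 8.31% were higher at FDR < 0.05 in this comparison. None of the 8 was lower, and the other 3 (Mme, Mep1a and Enpep) did not pass the test. The median log2 fold change of the 8 was 0.75, against -0.08 over all transcripts tested. In 4 of the 8, the 6 D3M libraries did not overlap with the 6 ND libraries, against 6.4% of all transcripts. The members were chosen with earlier results of these data known. Shares over all transcripts, here and below, are therefore given for scale and are not a test of the members.

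**Figure D1:**
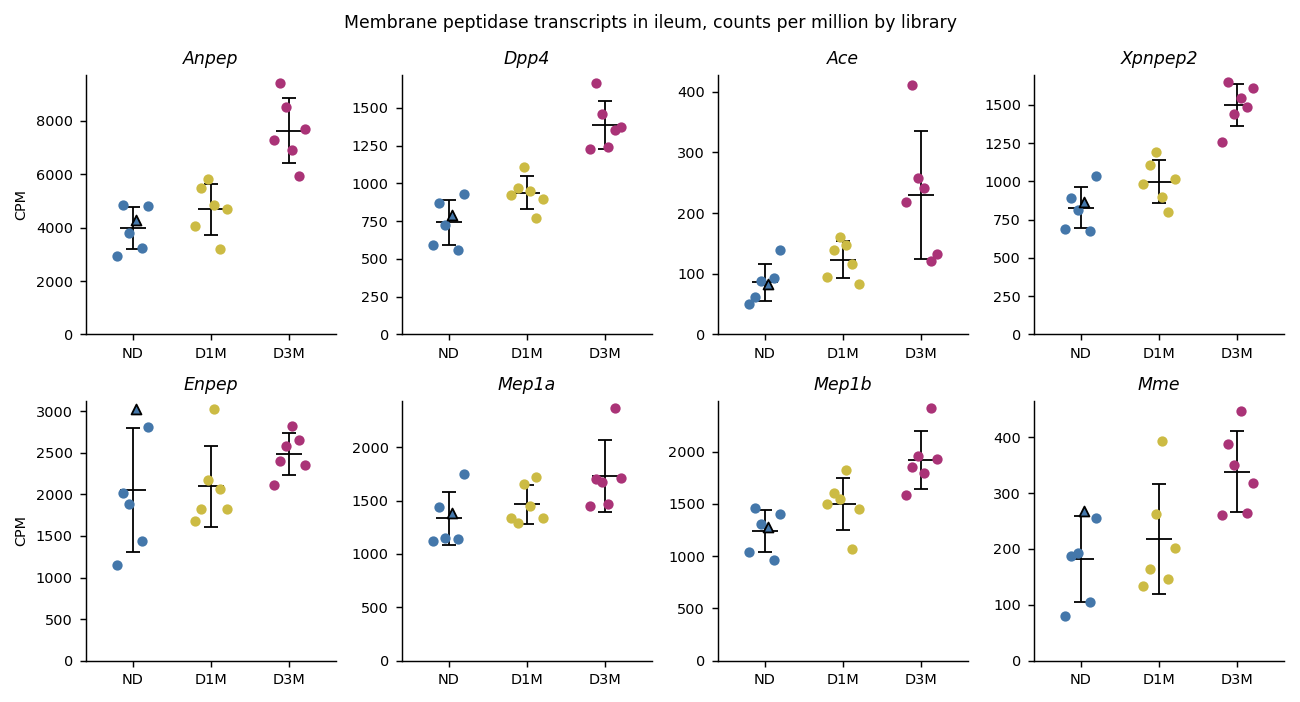
Levels of the 8 peptidase transcripts in ileum, in CPM, by group; each point is 1 library (n = 6 per group), horizontal bars with whiskers are the mean ± SD, and the triangle is the ND library of rat K4040, which holds colonic RNA. Anpep, Dpp4, Xpnpep2 and Mep1b have all 6 D3M points above all 6 ND points, whereas Enpep points overlap in the 3 groups.

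Among the aminopeptidases, Anpep (aminopeptidase N, which removes neutral residues from the N-terminus) had a lowest, median and highest level of 2927, 4042 and 4836 CPM in ND, 3210, 4768 and 5807 CPM in D1M and 5945, 7486 and 9404 CPM in D3M ileum. All 6 D3M libraries lay above every ND and every D1M library, and the latter groups overlapped. Anpep was 1.90-fold higher in D3M than in ND rats (log2 fold change 0.93, SE 0.18, edgeR FDR = 0.0056). Xpnpep2 (membrane-bound aminopeptidase P, which releases an N-terminal residue that precedes proline) ran from 675 through a median of 840 to 1035 CPM in ND, from 800 through 1000.1 to 1191 CPM in D1M and from 1260 through 1514 to 1649 CPM in D3M rats. Again the D3M libraries stood clear of the 12 others, and the transcript was 1.79-fold higher than in ND rats (log2 fold change 0.84, SE 0.14, edgeR FDR = 0.0026). Spread between D3M rats was smallest for Xpnpep2, with a coefficient of variation of 9.33%.

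Enpep (aminopeptidase A, which removes acidic residues) gave values of 1146, 1949 and 3030 CPM as lowest, median and highest in ND, 1681, 1941 and 3029 CPM in D1M and 2116, 2492 and 2816 CPM in D3M rats. The 3 groups overlapped and the highest value of all was the ND library of rat K4040. Its log2 fold change was 0.07 (95% interval -0.35 to 0.49, edgeR FDR = 0.86), and 0.32 without that library (edgeR FDR = 0.33). Enpep was at 2.87 to 8.62 CPM in colon libraries other than that of K4028. The fit without K4040 thus leaves out the highest ND level of a transcript that is scarce in colon. The coefficient of variation of Enpep was 36.1% in ND and 9.96% in D3M rats, so that the ND rats spread much more widely.

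Of the dipeptide-releasing enzymes, Dpp4 (dipeptidyl peptidase 4, which removes N-terminal dipeptides that end in proline or alanine) was at 557, 756 and 928 CPM as lowest, median and highest in ND, 774, 937 and 1111 CPM in D1M and 1225, 1366 and 1665 CPM in D3M rats. The lowest D3M library lay above the highest library of either other group. Dpp4 was 1.80-fold higher in D3M than in ND rats (log2 fold change 0.85, SE 0.15, edgeR FDR = 0.0032). Ace (angiotensin-converting enzyme, which removes C-terminal dipeptides) ran from 49.7 through 85.1 to 139.9 CPM in ND, from 83.9 through 128 to 160 CPM in D1M and from 121 through 229 to 410 CPM in D3M rats. It showed the largest change of the 8, a 2.20-fold difference between D3M and ND rats (log2 fold change 1.14, SE 0.21, edgeR FDR = 0.0042), and also the widest spread in D3M rats, with a coefficient of variation of 45.6%. For Ace, 4 of the 6 D3M libraries lay above all ND libraries, and the remaining pair, from rats P762 and P780, lay within the ND range. That pair was on flow cell 3, where the ND libraries were at 49.7 and 82.9 CPM, and the other 4 were on flow cell 1. Differences between rats and between flow cells are therefore mixed in this spread.

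The endopeptidases cut inside a peptide chain. Mep1b (the meprin beta subunit, which anchors the enzyme in the membrane) was at 961, 1295 and 1464 CPM as lowest, median and highest in ND, 1066, 1522 and 1827 CPM in D1M and 1582, 1894 and 2413 CPM in D3M rats. Every D3M library exceeded every ND library, D3M and D1M libraries overlapped, and Mep1b was 1.58-fold higher in D3M than in ND rats (log2 fold change 0.66, SE 0.16, edgeR FDR = 0.0151). Its partner subunit Mep1a (meprin alpha) ran from 1125 through 1268 to 1752 CPM in ND and from 1447 through 1691 to 2369 CPM in D3M rats, with overlapping groups and D1M values of 1287 to 1721 CPM. The log2 fold change of Mep1a was 0.27 (95% interval -0.03 to 0.58, edgeR FDR = 0.25). Without the D3M library of rat P762, its highest value, it was 0.12 (edgeR FDR = 0.60).

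Mme (neprilysin) had values of 80.3, 191 and 269 CPM as lowest, median and highest in ND, 134, 183 and 394 CPM in D1M and 261, 334 and 447 CPM in D3M rats. Only 1 ND library, that of rat K4040, reached into the D3M range. The log2 fold change was 0.60 with an SE of 0.33 (95% interval -0.05 to 1.25, edgeR FDR = 0.24), and 0.93 without that library (edgeR FDR = 0.11). As for Enpep, the library left out had the highest ND level, and Mme was at 0.071 to 1.62 CPM in colon outside K4028. With the widest SE of the 8, Mme did not pass the test in either fit.

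The 5 calls between D3M and ND rats were also made without the ileum library of K4040 and the colon library of K4028, with edgeR FDR between 0.0066 and 0.0352, and without the D3M ileum library of rat P762, with edgeR FDR between 0.0054 and 0.0375. Without K4040, 1024 of 13116 ileal transcripts were called in either direction, or 7.81%. The share without P762 is not given here. Mep1b alone lost its call in 1 of the 18 fits that left out a library (without the D1M rat K3986, edgeR FDR = 0.0508). With only the ND and D3M libraries in the fit, 1 of the 8 was called, Xpnpep2 (edgeR FDR = 0.0435), against 1.46% of all transcripts in either direction, and the other 4 had FDR between 0.0502 and 0.0791, at log2 fold changes of 0.65 to 0.97. With flow cell left out of the model 7 of the 8 were called, Mep1a (0.38, edgeR FDR = 0.049) and Mme (0.90, edgeR FDR = 0.040) included, against 3007 transcripts called in either direction over all, or 23.1%. No D3M ileum library was on flow cell 2, which held 3 of the 6 ND libraries. Within flow cell 3 (2 D3M against 2 ND libraries) all 8 members were higher in D3M rats, by 0.42 to 1.00 on the log2 scale, and within flow cell 1 (4 against 1) 6 of 8 were, with a range of -0.19 to 0.96 and Enpep and Mep1a negative.

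Between D3M and D1M rats, which differed in age by a few days, 4 of the 8 peptidases were higher in ileum: Ace, Anpep, Xpnpep2 and Dpp4. Over all transcripts tested, 1.93% were higher at FDR < 0.05 in this comparison. Ace was 1.68-fold higher (log2 fold change 0.75, SE 0.19, edgeR FDR = 0.0483), Anpep 1.62-fold (0.70, SE 0.16, edgeR FDR = 0.0376), Xpnpep2 by a log2 fold change of 0.58 (SE 0.12, edgeR FDR = 0.0294) and Dpp4 1.46-fold (0.55, SE 0.13, edgeR FDR = 0.0402). Anpep, Xpnpep2 and Dpp4 did not overlap between the groups, 3 of the 8, against 1.84% of all transcripts. All 8 log2 fold changes were positive, and those of Mep1b (0.37, edgeR FDR = 0.157), Mme (0.57, edgeR FDR = 0.30), Mep1a (0.21, edgeR FDR = 0.42) and Enpep (0.19, edgeR FDR = 0.63) did not pass the test. The comparison shares its D3M libraries with that against ND.

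These 4 calls lay close to the threshold. When 1 ileum library was left out, 0 of the 8 were called without the D1M rat K3978, K3988, K3989 or K3990 or the D3M rat K3961 or P780, 1 was called without the D3M rat K3977, and 2 were called without the D3M rat P762 or the ND rat K4038. Across all 18 such fits the log2 fold change stayed between 0.59 and 0.82 for Ace, 0.58 and 0.77 for Anpep, 0.51 and 0.65 for Xpnpep2, and 0.48 and 0.60 for Dpp4, with FDR up to 0.126. Where a call was lost, edgeR's unadjusted p ran from 0.00051 (Xpnpep2 without K3990) to 0.0036 (Ace without K3989). FDR also depends on all other transcripts of a fit, so these counts are not a result about the members alone. The share of all transcripts called in these fits is not given here. Ace also missed the threshold with no filter on low counts (edgeR FDR = 0.059) and with flow cell left out of the model (0.90, edgeR FDR = 0.104). Within flow cell 1 (4 D3M against 3 D1M libraries) 7 of the 8 members were higher in D3M rats, and within flow cell 3 (2 against 2) all 8 were, by 0.50 to 0.81 on the log2 scale.

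Between D1M and ND rats, 0 of the 8 peptidases were called in ileum by edgeR, DESeq2 or voom, against 0.0154% of all transcripts by edgeR. At an unadjusted p under 0.05, edgeR gave 1 of the 8 (Dpp4), voom 3 and DESeq2 4. Over all 13026 transcripts these tools gave 1087, 1565 and 1134. Log2 fold changes were positive in 7 of the 8, with a median of 0.25 and a range from -0.12 (Enpep) to 0.39 (Ace), and the edgeR FDR was 0.585 or above. In 0 of the 8 were the groups free of overlap, against 0.606% of all transcripts. In mean CPM the order was ND, D1M, D3M for each of the 8, and no difference between the neighbours ND and D1M passed the FDR threshold. The unadjusted 95% intervals lay above 0 for Ace (0.02 to 0.76), Dpp4 (0.04 to 0.57), Mep1b (0.0046 to 0.58) and Xpnpep2 (0.01 to 0.51). These intervals are approximate multiples of the SE and are narrower than edgeR's test allows. By that test the unadjusted p was 0.039 for Dpp4, but 0.055 for Ace, 0.056 for Xpnpep2 and 0.063 for Mep1b. For Ace, Xpnpep2 and Mep1b the intervals therefore do not show a difference between D1M and ND.

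**Figure D2:**
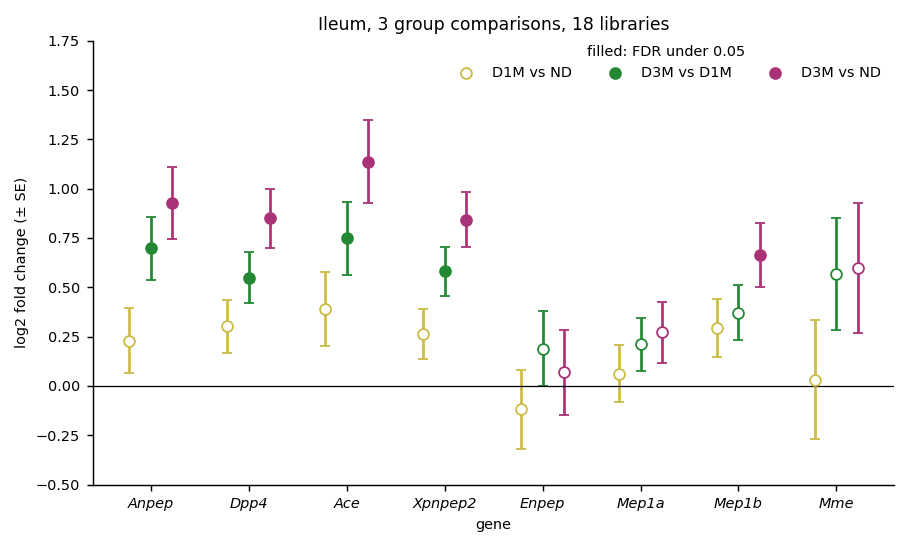
Log2 fold changes (points) with their SE (whiskers) of the 8 peptidases in ileum for D1M against ND, D3M against D1M and D3M against ND; filled points passed FDR < 0.05 in edgeR over 18 libraries. Ace, Anpep, Dpp4 and Xpnpep2 are filled in both comparisons with D3M, Mep1b in that against ND, and the D1M against ND points are all open, between -0.12 and 0.39.

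The 8 transcripts made up 1.12 ± 0.19% of all counts in ND, 1.21 ± 0.13% in D1M and 1.59 ± 0.16% in D3M ileum (SD, n = 6 each). The lowest D3M library, at 1.42%, lay above the highest ND library, at 1.38%, and the highest D1M library, at 1.36%.

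Across the 18 ileum libraries the members varied together, with Pearson's r of log2 CPM between 0.47 and 0.97 over their 28 pairs and a median of 0.75. The libraries share their groups and flow cells. With group and flow cell effects removed the median was 0.52, with a range of -0.07 to 0.89. Dpp4 and Xpnpep2 formed the closest pair (r = 0.97, and 0.89 with both effects removed), and Mep1a and Ace the loosest (0.47 and -0.07). Enpep and Mme were at 0.89, and at 0.88 with both effects removed, so that these members varied together beyond the differences between groups and flow cells. Over 10860 transcripts ranked by their likeness to the mean standardized level of the 8, the closest included Slc15a1 (0.97), Epb41l3 (0.97), Ezr (0.97), which links microvillar membrane to actin, Acad11 (0.96), Cobl (0.96), Slc9a3r1 (0.96), a scaffold that binds Ezr, and Ahcyl2 (0.96). These correlations are descriptions over libraries that share groups and flow cells.

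Over all 13026 ileal transcripts tested, 1082 were higher and 550 lower in D3M than in ND rats, for scale beside the lists that follow. Among 18 other membrane peptidases tested, 5 were higher and 0 lower in D3M than in ND ileum, with a median log2 fold change of 0.04. They included Ggt1 (gamma-glutamyltransferase, 0.82, edgeR FDR = 0.0117) and the membrane serine proteases Prss8 (0.60, edgeR FDR = 0.0179) and St14 (0.52, edgeR FDR = 0.037). Of 18 cytosolic peptidases, which finish the digestion of absorbed peptides, 2 were higher and 0 lower, with a median of 0.09. These were the leucine aminopeptidase Lap3 (0.93, edgeR FDR = 0.0032) and the aspartyl aminopeptidase Dnpep (0.72, edgeR FDR = 0.0037).

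Of 14 peptide and amino acid carriers, 6 were higher and 1 lower, with a median log2 fold change of 0.51. Slc6a19 was at 1343 to 1926 CPM in ND and 2799 to 3931 CPM in D3M rats (0.98, SE 0.15, edgeR FDR = 0.0019), and Slc15a1 at 751 to 1289 CPM in ND and 1456 to 2305 CPM in D3M rats (0.77, SE 0.17, edgeR FDR = 0.0102), without overlap in either. Slc3a2, the heavy chain of several amino acid exchangers, was also higher (0.55, edgeR FDR = 0.0122), and Slc1a1, the carrier of acidic amino acids, was lower (-0.70, edgeR FDR = 0.0037). Tmem27, the collectrin partner of Slc6a19, was near the floor, at 2 to 16 counts per ileum library. Of 10 other hydrolases and sugar-handling enzymes, with a median log2 fold change of 0.72, 4 were higher and 0 lower, including the fructolytic enzyme Khk (0.56, edgeR FDR = 0.0049) and the disaccharidases Lct (2.14, edgeR FDR = 0.0148) and Mgam (1.03, edgeR FDR = 0.0187). Lct rested on 38 to 455 counts per library in these groups.

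Transcripts of microvillar structure moved with the peptidases. Between D3M and ND ileum 12 of 17 were higher and 0 lower, with a median log2 fold change of 0.67, led by Myo7b (0.81, edgeR FDR = 0.0018) and Pdzk1 (0.92, edgeR FDR = 0.0023), then Vil1, the villin of the microvillus core (0.70, edgeR FDR = 0.0045), and Anks4b (0.74, edgeR FDR = 0.0049). Of 11 general epithelial markers 4 were higher, among them Cdh17 (0.55, edgeR FDR = 0.0122), Cldn3 (0.47, edgeR FDR = 0.0104) and Cldn7 (0.49, edgeR FDR = 0.0203), and 1 was lower, Krt18 (-0.66, edgeR FDR = 0.0190), with a median of 0.34. Summed over the list, epithelial markers were at 19956 to 27752 CPM in ND and 27892 to 37275 CPM in D3M ileum, and structural transcripts of the brush border at 17740 to 27036 CPM in ND and 30956 to 42549 CPM in D3M ileum. Relative to the epithelial median, the 5 called members stood 0.33 to 0.80 higher on the log2 scale. Relative to the median of the brush border structure list they stood between -0.01 (Mep1b) and 0.47 (Ace). Whether more epithelium per sample has a part in the result was not tested.

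Ileal identity transcripts, of which Slc15a1, Slc6a19 and Mgam are also in the lists above, had 8 of 11 higher and 0 lower and a median log2 fold change of 0.87, with Apoa1 at 1.33 (edgeR FDR = 0.00076), Apob at 0.87 (edgeR FDR = 0.0026) and the sodium-glucose carrier Slc5a1 at 1.25 (edgeR FDR = 0.0049). Of 15 epithelial transcription factors, 6 were higher and 0 lower, including Prdm1 (1.19, edgeR FDR = 0.0048), Gata5 (0.62, edgeR FDR = 0.0136) and Klf4 (0.54, edgeR FDR = 0.045). Peptide hormones and their receptors had 1 of 13 higher, Cck (1.20, edgeR FDR = 0.0187), and 1 lower, the Dpp4 substrate Cxcl12 (-0.84, edgeR FDR = 0.0189).

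For other cell types in the ileal wall, 0 members of the B cell (21 tested), T cell (14), macrophage (9), smooth muscle (11), goblet (6) and colonic identity (8) lists passed edgeR's test between D3M and ND rats. At an unadjusted p under 0.05 the counts were 4 of 8 for colonic identity, 1 of 9 for macrophage, 1 of 6 for goblet and 0 for the B cell, T cell and smooth muscle lists. Over all 13026 transcripts edgeR gave 3867 at that p. Of 10 endothelial transcripts 2 were lower, Cldn5 (-0.97, edgeR FDR = 0.0200) and Tek (-0.76, edgeR FDR = 0.047), and of 11 fibroblast and pericyte transcripts 1 was higher, Fbln1 (0.40, edgeR FDR = 0.039), and 1 lower, Col1a1 (-0.92, edgeR FDR = 0.032). Summed B cell markers ranged from 55.3 to 1645 CPM in ND, 47.6 to 1132 CPM in D1M and 42.0 to 594 CPM in D3M ileum, with medians of 445, 68.4 and 48.6 CPM. With a B cell score of each library as a covariate, the 5 calls against ND and the 4 against D1M were made again, at log2 fold changes of 0.62 to 1.13 and 0.51 to 0.74. The share of all transcripts called with that covariate is not given here.

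**Figure D3:**
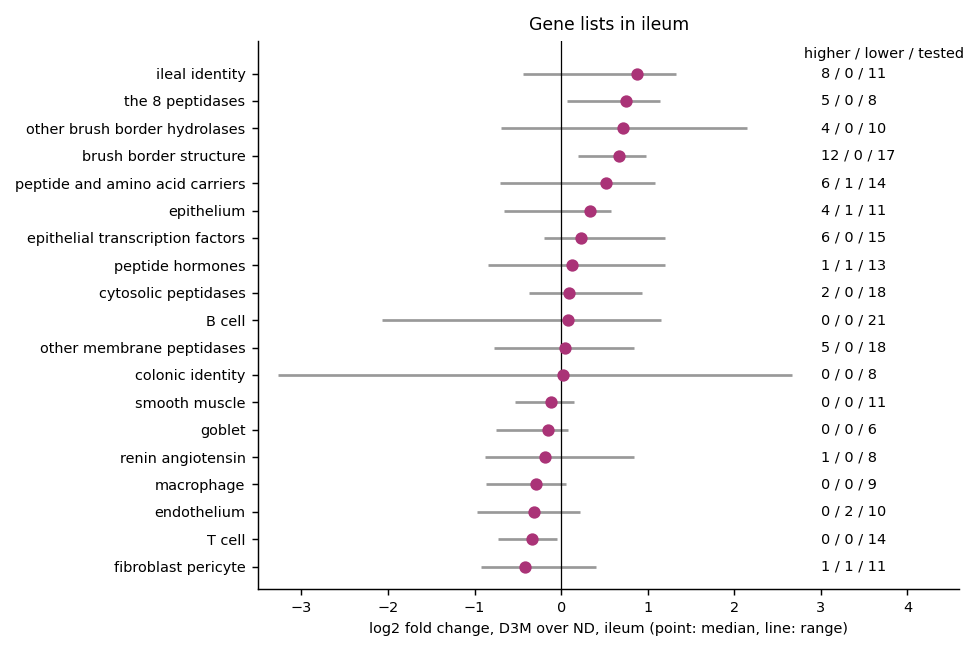
Log2 fold changes between D3M and ND ileum for the 8 peptidases and 18 other gene lists; points are list medians, grey lines run from the lowest to the highest member, and the numbers at the right count members higher and lower at FDR < 0.05 and members tested. The peptidases (median 0.75, 5 of 8 higher) sit beside brush border structure (0.67, 12 of 17) and above cytosolic peptidases (0.09, 2 of 18), and the smooth muscle, T cell and macrophage medians are below 0.

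In the proximal colon all 8 transcripts were lower than in ileum, over all groups, by 2.37-fold for Mep1a to 167-fold for Anpep (edgeR FDR between 1.9e-14 and 2.7e-09). Over all 13697 transcripts tested, 34.5% were lower in colon. Without the K4028 colon and K4040 ileum libraries the log2 differences widened to -8.80 for Enpep, -8.70 for Anpep, -8.54 for Mme, -6.11 for Xpnpep2 and -5.65 for Dpp4, whereas Ace (-2.32), Mep1b (-2.31) and Mep1a (-1.31) moved little. Over all libraries those 5 were 34.3- to 167-fold lower, and Mep1b, Ace and Mep1a 4.58-, 4.53- and 2.37-fold. With the rat as replicate block, which pairs the 2 libraries of an animal, all 8 were again called, from -1.23 (Mep1a) to -8.67 (Enpep).

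**Figure D4:**
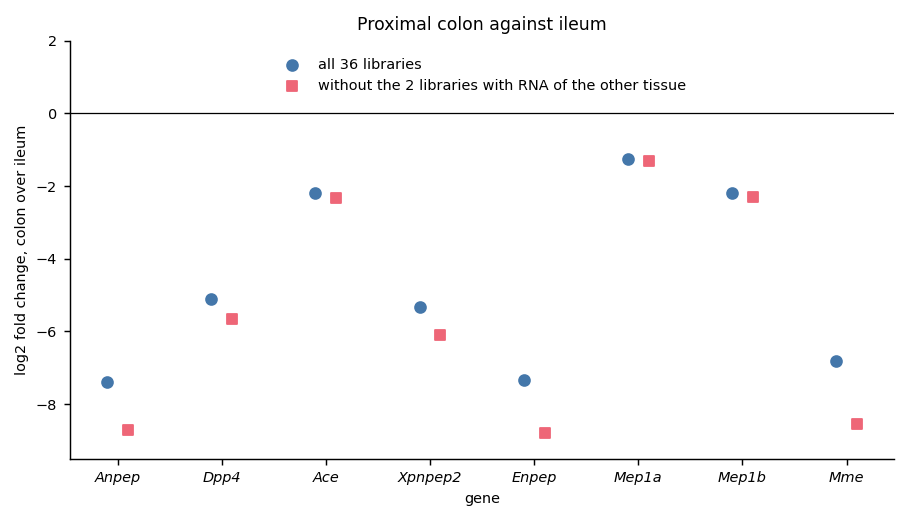
Log2 fold change of each peptidase between colon and ileum, over all 36 libraries (circles) and without the colon library of K4028 and the ileum library of K4040 (squares); negative values are lower in colon. Mep1a, Mep1b and Ace lie between -1.24 and -2.32 in both fits, and the other 5 lie at -5.10 or below in both, reaching -8.80 for Enpep without those libraries.

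In colon libraries other than that of K4028, Mep1a was at 333 to 949 CPM and Mep1b at 186 to 644 CPM, both well covered, and Ace at 7.73 to 63.3 CPM. Dpp4 was at 13.5 to 29.6 CPM, Xpnpep2 at 10.4 to 27.1 CPM, Anpep at 9.06 to 21.7 CPM and Enpep at 2.87 to 8.62 CPM. Mme, at 0.071 to 1.62 CPM, rested on 1 to 25 counts per library. In the K4028 colon library, Anpep was at 2109 CPM, Enpep at 1336 CPM, Mep1a at 1076 CPM, Mep1b at 760 CPM, Xpnpep2 at 437 CPM, Dpp4 at 384 CPM, Mme at 125 CPM and Ace at 45.6 CPM. Against the ileum library of the same rat, with each tissue on its own CPM scale, Fabp6 in that library was at 58.5%, and the members ran from 63.4% (Xpnpep2), 64.7% (Dpp4) and 72.1% (Anpep) to 117% (Enpep) and 156% (Mme).

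Between groups in colon, 0 of the 8 peptidases were called by edgeR, DESeq2 or voom in any comparison. Over all 12906 transcripts tested, edgeR called 0.0155% for D3M against ND, 0% for D1M against ND and 0% for D3M against D1M. At an unadjusted p under 0.05 the counts between D3M and ND rats were 4 of 8 by edgeR (Mme, Dpp4, Anpep and Enpep), 5 by DESeq2 and 1 by voom. Over all 12906 transcripts these tools gave 1292, 1449 and 2086. For D1M against ND the counts of members were 0, 5 and 0, against 602, 732 and 1479 over all transcripts. For D3M against D1M they were 0 by each tool, against 682, 736 and 1056. With all libraries the log2 fold changes between D3M and ND ran from -4.37 (Mme) to 0.29 (Ace), with Enpep at -3.90, Anpep at -3.51, Dpp4 at -1.64 and Xpnpep2 at -1.57. Without the K4028 library they were -0.99 for Mme, -0.43 for Enpep, -0.64 for Anpep, -0.41 for Dpp4 and 0.32 for Xpnpep2 (edgeR FDR of 0.44 or above), and Ace was at 0.71 (edgeR FDR = 0.64). Within flow cell 2 (4 D3M against 2 ND libraries) 5 of the 8 were higher in D3M colon, with a range of -0.82 to 0.97, and within flow cell 3 (2 against 2), which holds the K4028 library, all 8 were lower, by values from -4.53 to -0.19. No D3M colon library was on flow cell 1.

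Without that library the groups still overlapped for all 8 members in colon. In that fit Anpep and Dpp4 had an unadjusted p under 0.05 in edgeR for D3M against ND, as had 1048 of all 13005 transcripts. Both members had negative log2 fold changes, and neither passed the FDR threshold. Anpep was 16.8 ± 4.39 CPM in ND (SD, n = 5), 14.5 ± 2.54 CPM in D1M (n = 6) and 11.2 ± 2.42 CPM in D3M rats (n = 6), and Dpp4 was 23.6 ± 2.75, 22.5 ± 3.88 and 18.5 ± 5.13 CPM in the same order. Mep1a was 658 ± 224, 658 ± 106 and 653 ± 91.1 CPM, and Mep1b was 311 ± 76.4, 371 ± 165 and 371 ± 112 CPM. Ace was 25.7 ± 10.0, 26.2 ± 16.3 and 38.6 ± 14.8 CPM, and Xpnpep2 15.2 ± 3.11 CPM in ND and 19.0 ± 4.09 CPM in D3M rats. Enpep was 5.55 ± 2.71, 5.99 ± 2.08 and 3.95 ± 0.79 CPM, and Mme 0.93 ± 0.40, 0.63 ± 0.38 and 0.35 ± 0.22 CPM, the latter on few counts.

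**Figure D5:**
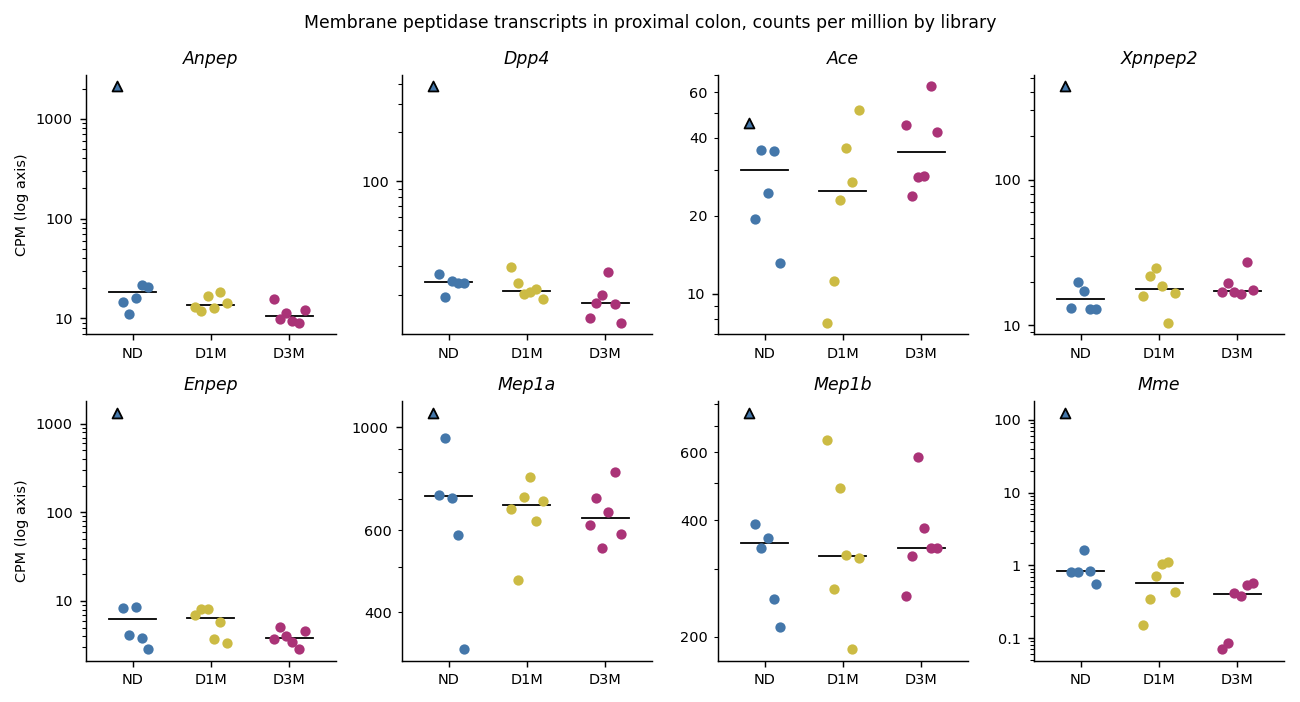
Levels of the 8 peptidase transcripts in proximal colon, in CPM on a log axis, by group; each point is 1 library (n = 6 per group), horizontal lines are medians, and the triangle is the ND library of rat K4028, which holds ileal RNA. The triangle reaches 2109 CPM for Anpep and 1336 CPM for Enpep, and without it the groups overlap in all 8 panels.

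A call in ileum and none in colon does not show that the tissues differ, so the difference in log2 fold change between ileum and colon was tested. With all 36 libraries, 0 of the 8 differed between tissues in the D3M against ND comparison by edgeR, against 1.56% of all transcripts, with 5 of 8 at an unadjusted p under 0.05 (2303 of 13697 over all). DESeq2 called 3 of the 8 (Dpp4, Mme and Anpep), against 3.75% of all transcripts, and voom 1 (Dpp4), against 3.5%. Without the K4028 colon and K4040 ileum libraries, edgeR called 2 of the 8, against 0.268% of all transcripts: the rise in D3M ileum exceeded the colon value by 1.71 on the log2 scale for Anpep (edgeR FDR = 0.0040) and by 1.35 for Dpp4 (edgeR FDR = 0.0055). Xpnpep2 (0.60, edgeR FDR = 0.47), Ace (0.62, edgeR FDR = 0.68) and Mep1b (0.55, edgeR FDR = 0.69) were not called there. With the rat as replicate block over all libraries 0 of the 8 were called, as were 0% of all transcripts. Dpp4 was at 2.44 (edgeR FDR = 0.25) and Anpep at 3.24 (edgeR FDR = 0.38). In the D3M against D1M comparison 0 of the 8 differed between tissues by edgeR, DESeq2 or voom, against 0% of all transcripts by edgeR. At an unadjusted p under 0.05 these tools gave 0, 0 and 1 of the 8, against 1138, 1149 and 1916 of 13697 transcripts.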

How the data were processed

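Polyadenylated RNA of whole ileum and proximal colon was made into TruSeq stranded libraries and sequenced on an Illumina NextSeq. The authors aligned reads with STAR to rn6 and counted reads per annotated gene in SeqMonk; tool versions and the strand setting of the counting are not given in the sources used here. Reads of a gene and of another on the opposite strand may therefore be mixed. The deposited table holds raw counts of 24773 genes in 36 libraries; the deposited log2 table of the same libraries was not used. CPM is scaled to TMM effective library sizes, computed within each tissue, while shares of all counts use the library total. Groups, rats, ages and flow cells were taken from the labels. The members and all gene lists were chosen with earlier results of these data known.

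Each tissue (18 libraries, 3 groups) was fitted in edgeR 4.0.16 (R 4.3.3, limma 3.58.1) with TMM, filterByExpr by group, glmQLFit (robust, legacy), group means and flow cell in 3 levels, and p-values were adjusted over all transcripts kept (FDR < 0.05). SE is the log2 fold change divided by the square root of F, and 95% intervals are 1.96 SE to either side. Colon against ileum and the difference between tissues used all 36 libraries. Replicates are separate rats. The 2 libraries of a rat come from the same animal; their deviations from the group means correlated by more than 0.1 in 6 of 18 rats (range -0.52 to 0.76). Differences within a flow cell are between means of log2(CPM + 0.5). Likeness used log2 CPM (prior count 2, mean at least 1). In colon, counting error weighs on Mme (1 to 25 counts per library outside K4028) and Enpep (32 counts in the lowest library). The fit was tested on simulated data.

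Named genes are the 8 members, Slc15a1, Slc6a19 and Tmem27, at most 4 genes per list with the smallest p between D3M and ND ileum, and the 8 transcripts most like the members; some of these are not reported here. Alternatives were DESeq2 1.42.0, voom with sample quality weights, RLE size factors, a filter of 1 CPM in 6 libraries, no filter, flow cell left out of the model, libraries of flow cell 2 left out, 2 groups per fit, each library left out, the rat as replicate block, the K4028 colon and K4040 ileum libraries left out, thinned counts and centring on the epithelium or brush border structure list. A B cell score as covariate was added after seeing the data. Promoters are from RefSeq (GRCr8), in which all 8 members matched by symbol. Python 3.11 and matplotlib drew the figures.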

Additional observations from a re-analysis of the deposited data

Results flagged for a closer look

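In 48 groups of 6 libraries (8 members, 2 tissues, 3 groups), 9 had a highest library whose gap to the next took an unusually large share of the range of the group; chance alone gives about 1 in 20 groups. Of these, 6 were the ND colon library of rat K4028: Anpep (2109 CPM against 21.7 CPM for the next), Enpep (1336 against 8.62 CPM), Xpnpep2 (437 against 19.7 CPM), Dpp4 (384 against 27.0 CPM), Mme (125 against 1.62 CPM) and Mep1b (760 against 392 CPM). In ileum, Enpep in the D1M rat K3988 was at 3029 CPM against 2168 CPM for the next, and Mep1a in the D3M rat P762 was at 2369 CPM against 1710 CPM. Xpnpep2 in the D3M colon library of the same rat was at 27.1 CPM against 19.4 CPM.

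The D3M against ND difference was larger in ileum than in colon by 1.71 on the log2 scale for Anpep and by 1.35 for Dpp4 when the K4028 colon and K4040 ileum libraries were left out (edgeR FDR = 0.0040 and 0.0055). With all libraries the values were 4.46 and 2.54, and neither passed FDR < 0.05.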

How the results depend on the processing

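The 5 calls between D3M and ND ileum and the 4 between D3M and D1M ileum were also made by DESeq2 and voom, for the same genes. Those tools called more transcripts than edgeR in either direction. DESeq2 called 17.3% against ND and 7.59% against D1M, and voom 15.8% and 6.04%. With only the 2 groups compared in the fit, 1 member was called between D3M and ND ileum. That fit called 185 of 12672 transcripts in all, against 1632 of 13026. The same setting called 326 transcripts for D3M against D1M in ileum, against 289, and 315 for D3M against ND in colon, against 2. Other settings called between 561 (without flow cell 2) and 3007 (no flow cell term) transcripts for D3M against ND in ileum. Against D1M they called between 130 (without flow cell 2) and 989 (DESeq2). Between tissues, the members called for D3M against ND were 0 in all libraries, 3 by DESeq2, 1 by voom and 2 without the K4028 colon and K4040 ileum libraries. With 1 library left out, 4 to 5 members were called between D3M and ND ileum and 0 to 4 between D3M and D1M ileum. With the rat as replicate block, which pairs the libraries of an animal, no call changed. In those fits 8 of 8 members were lower in colon, and 0 differed between tissues in either comparison, against 0% of all transcripts in each. Apart from Mep1b, named below, signs turned only in values of members that were not called in the comparison. By voom, D1M against ND in colon gave 0.097 for Ace, 0.039 for Mep1a and 0.063 for Mep1b, D3M against ND in colon 0.12 for Mep1a and 0.057 for Mep1b, and D1M against ND in ileum -0.044 for Mme. Without the K4028 colon and K4040 ileum libraries, D1M against ND gave 0.068 for Enpep, 0.048 for Mep1a, 0.19 for Mep1b and 0.25 for Xpnpep2 in colon and 0.10 for Enpep in ileum. In the same fit D3M against ND in colon gave 0.17 for Mep1a, 0.18 for Mep1b and 0.32 for Xpnpep2, and D3M against D1M 0.076 for Xpnpep2. With no flow cell term, Enpep was at 0.030 for D1M against ND in ileum, and for D3M against D1M in colon Mep1a was at -0.010 and Xpnpep2 at 0.078. With only the 2 groups compared, D3M against ND in colon gave 0.086 for Mep1a and 0.075 for Mep1b. Under the replicate block Ace was at -0.067 for the tissue difference in D3M against D1M. Relative to the median of brush border structure, Mep1b, which was called, was at -0.0063 for D3M against ND in ileum. With 1 library left out, the log2 fold change in ileum ran from -0.13 to 0.32 for Enpep in D3M against ND, and in D1M against ND from -0.29 to 0.10 for Enpep, -0.026 to 0.21 for Mep1a and -0.18 to 0.33 for Mme. In colon it ran, for D3M against ND, from -0.0033 to 0.71 for Ace, -0.24 to 0.17 for Mep1a, -0.31 to 0.18 for Mep1b and -2.08 to 0.32 for Xpnpep2. For D1M against ND in colon it ran from -3.63 to 0.068 for Enpep, -0.28 to 0.048 for Mep1a, -0.21 to 0.19 for Mep1b and -1.79 to 0.25 for Xpnpep2, and for D3M against D1M from -0.0051 to 0.20 for Mep1a, -0.23 to 0.16 for Mep1b and -0.36 to 0.14 for Xpnpep2. The causes were not tested. Depth limits Mme in colon, at 1 to 25 counts per library other than K4028, and to a lesser degree Enpep.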
